A study of Mus musculus with 12 samples.

Results

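The genes of the BCL2 family that decide between survival and death of a cell were followed in granulocyte-monocyte precursors (GMPs), the bone marrow progenitors of granulocytes and monocytes, with and without the repressor Gfi1. Of 10 listed family genes, 9 had a value among the 14201 genes measured, and these 9 rest on 41 of the 105661 probe sets of the table, chosen by gene symbol alone. Bax, the listed gene that GFI1 is reported to repress, was paired with no probe set and is not analysed here. GMPs sorted from C57BL/6 mice by flow cytometry gave 12 Affymetrix Mouse Gene 1.0 ST arrays, 3 for each of 4 genotypes, after amplification of the RNA. These were wild type (WT), a Gfi1 knock-out (KO), a knock-in of the common human form of Gfi1 (wtKI, labelled human Gfi1-wt) and a knock-in of a human variant form (SNP, labelled human Gfi1-SNP). The study asked which genes differ with the variant form, in relation to acute myeloid leukaemia. The labels give no age, say nothing of how the alleles were built and leave unstated whether replicates came from different mice, so the p-values reflect only the spread among these arrays, part of which may be technical. In sorted populations such as these, fewer cells of a type and less RNA per cell cannot be told apart.

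BCL2 family proteins meet at the mitochondrial outer membrane. The effectors BAX and BAK open it and release cytochrome c, which starts the caspases. BCL-2, BCL-XL and MCL-1 hold the effectors closed, and the BH3-only proteins BIM, BID, BAD, PUMA and NOXA carry death signals by occupying these guardians or by activating the effectors. Myeloid progenitors are known to depend on MCL-1, and GFI1 is described as favouring the survival of blood progenitors.

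All values are log2 signals, so a difference of 1 is a doubling, and each is printed with its standard error from limma unless it is called an SD. KO 1 and SNP 1 stood apart from the rest: their median correlations with the other arrays over all probe sets were 0.70 and 0.633, against 0.836 to 0.886 for the other 10. Markers of other cells moved with them, given here as the mean of each list minus its WT mean. On SNP 1 the 12 late neutrophil genes lay at 4.01, the 6 B-lineage genes at 3.55 and the 7 erythroid genes at 3.29, and the 7 measured GMP genes (Kit, Cd34, Mpo and others) at -1.22. On KO 1 the erythroid list lay at 1.48 and the B-lineage list at 1.23. On the other 10 arrays the GMP list stayed between -0.27 and 0.085, and Mpo, myeloperoxidase, between 11.38 and 11.59. Other GMP genes were less even. Kit was at 8.02 to 8.48 in KO and 8.61 to 8.72 in WT. Fcgr3 was at 6.97 to 8.07 in wtKI and 8.23 to 9.07 in WT. Of the 7 GMP genes 1 lay apart lower in KO than in WT, against 6.1% of all genes, and 0 higher. Markers of mast cells and basophils moved with the genotype: 5 of 6 lay apart and higher in KO than in WT, against 5.75% of all genes. Their list means were 1.20 to 1.41 on the KO arrays, -0.34 to 0.47 in WT, 0.31 to 1.23 in wtKI and -0.27 to 0.40 in SNP. Fcer1a, a chain of the IgE receptor, was at 7.88 to 8.19 in KO and 3.25 to 5.82 in WT. The 6 stem cell genes averaged 0.37 to 0.70 in KO, -0.17 to 0.28 in WT, 0.26 to 1.37 in wtKI and -0.067 to 0.89 in SNP, so that wtKI 2 and wtKI 3 lay above every KO array. Of these genes 3 lay apart higher in KO than in WT, as did 2 of 4 megakaryocyte genes, and 0 of either list lay apart lower. The megakaryocyte list lay at 0.30 to 0.60 in KO, -0.050 to 0.093 in WT, 0.17 to 0.55 in wtKI and -0.21 to 0.63 in SNP. The late neutrophil list lay at -1.32 to -0.04 in KO and -0.51 to 0.58 in WT. Of its 12 genes 3 lay apart lower in KO and 1 higher, Mmp8, at 10.16 to 10.34 in KO and 6.56 to 7.14 in WT. The 7 measured monocyte and macrophage genes averaged -0.60 to -0.17 in KO and -0.18 to 0.15 in WT. Of these 3 lay apart lower in KO and 2 higher, against 6.1% and 5.75% of all genes. The part of these lists in the KO differences of Bid, Bcl2 and Pmaip1 given below was not tested. Y-linked genes were low on WT 3, wtKI 2 and wtKI 3 and high on the other 9 arrays, so that all KO and SNP arrays read as male. Gfi1 itself was at 5.78 to 6.39 in WT and 6.46 to 6.91 in KO, so its probe sets do not check the KO label. Values called those on 10 arrays are from the same fit without KO 1 and SNP 1.

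The bases upstream of Bcl2 and Bak1 are shown because the values of these genes lay apart between groups, Bcl2 lower in KO than in WT and Bak1 lower in SNP than in KO, and because GFI1 binds DNA through a core of the letters AATC. Bid, lower in KO than in WT, and Mcl1, higher in SNP than in WT, also lay apart, but their windows are not printed. The sequences are the 250 bases before the annotated start of each gene, from RefSeq on build GRCm38.p6 and read 5′ to 3′ on the gene's strand, which is the minus strand for both. The Bcl2 window is chr1:106714291-106714540 and the Bak1 window is chr17:27028628-27028877. Capitals mark AATC on either strand.
Bcl2: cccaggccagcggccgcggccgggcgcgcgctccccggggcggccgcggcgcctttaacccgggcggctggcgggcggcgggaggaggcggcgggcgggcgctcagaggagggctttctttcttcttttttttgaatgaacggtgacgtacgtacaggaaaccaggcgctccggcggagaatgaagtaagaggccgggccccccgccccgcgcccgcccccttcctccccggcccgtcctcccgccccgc
Bak1: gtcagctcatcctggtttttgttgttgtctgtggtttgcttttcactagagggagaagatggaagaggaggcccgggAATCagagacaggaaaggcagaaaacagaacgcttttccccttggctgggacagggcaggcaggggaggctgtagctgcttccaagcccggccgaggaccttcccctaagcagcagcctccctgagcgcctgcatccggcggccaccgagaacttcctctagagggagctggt

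The Bak1 window held 1 match of AATC, starting at position -173 from the gene's start, and the Bcl2 window held 0. RefSeq gave upstream windows for 8 of the 9 measured genes, 14 windows in all because some genes have several starts. AATC on either strand was in 9 of these 14, against 69.0% of all 32851 windows of the same length, and its longer form AAATCA, which contains it, was in 1 of 14, against 12.4%. The windows of Bid and Bbc3 held no AATC. A match is a description of letters and not a binding site.

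Bcl2, the founding survival gene of the family, was at 7.72, 7.38 and 7.49 on WT 1 to WT 3, at 6.58, 7.02 and 7.25 on KO 1 to KO 3, at 7.42, 7.86 and 7.52 on the wtKI arrays and at 5.96, 7.47 and 7.22 on the SNP arrays. Each KO array lay below each WT and each wtKI array, and in SNP the low mean came from SNP 1. The difference was -0.58 ± 0.34 between KO and WT and -0.71 ± 0.34 between SNP and wtKI (limma adjusted p = 1 and 0.55 over all genes). With KO 1 and SNP 1 left out (10 arrays) it was -0.40 ± 0.19 between KO and WT and -0.25 ± 0.19 between SNP and wtKI. Leaving arrays out cannot make groups that lie apart overlap. On the 10 arrays 12.7% of all genes lay apart lower in KO than in WT. The mast cell list lay 1.20 to 1.41 above its WT mean on the KO arrays and 1.23 above it on wtKI 3, where Bcl2 was at 7.52. The part of that list in the Bcl2 values was not tested.

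Bcl2l1, which encodes BCL-XL, the survival protein of maturing red cells and platelets, was at 6.62, 6.18 and 7.17 in WT, 7.32, 7.28 and 6.77 in KO, 6.83, 7.10 and 6.45 in wtKI and 9.58, 6.64 and 6.94 in SNP. One array, SNP 1, stood 2.79 above the mean of SNP 2 and SNP 3, while all 4 groups overlapped otherwise. The SNP minus wtKI difference of 0.93 ± 0.62 was 0.0017 ± 0.31 on the 10 arrays. KO minus WT was 0.46 ± 0.62 and 0.37 ± 0.31. SNP 1 is the array with the raised erythroid and late neutrophil genes, and their part in the Bcl2l1 value was not tested.

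Mcl1, which encodes a short-lived survival protein, was also highest on SNP 1, but by less than Bcl2l1. The Mcl1 values were 9.09, 9.18 and 9.25 in WT, 9.92, 9.30 and 9.16 in KO, 9.49, 9.20 and 9.55 in wtKI and 10.26, 9.27 and 9.26 in SNP. KO 1 and SNP 1 were the highest arrays, 0.69 and 0.996 above the mean of the other arrays of their groups. Each SNP array lay above each WT array, although SNP 2 and SNP 3 did so by little: the difference was 0.42 ± 0.28 on 12 arrays and 0.087 ± 0.16 on 10. KO minus WT was 0.28 ± 0.28 (0.054 ± 0.16 on 10 arrays), and SNP minus wtKI turned from 0.18 ± 0.28 to -0.15 ± 0.16.

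**Figure D1:**
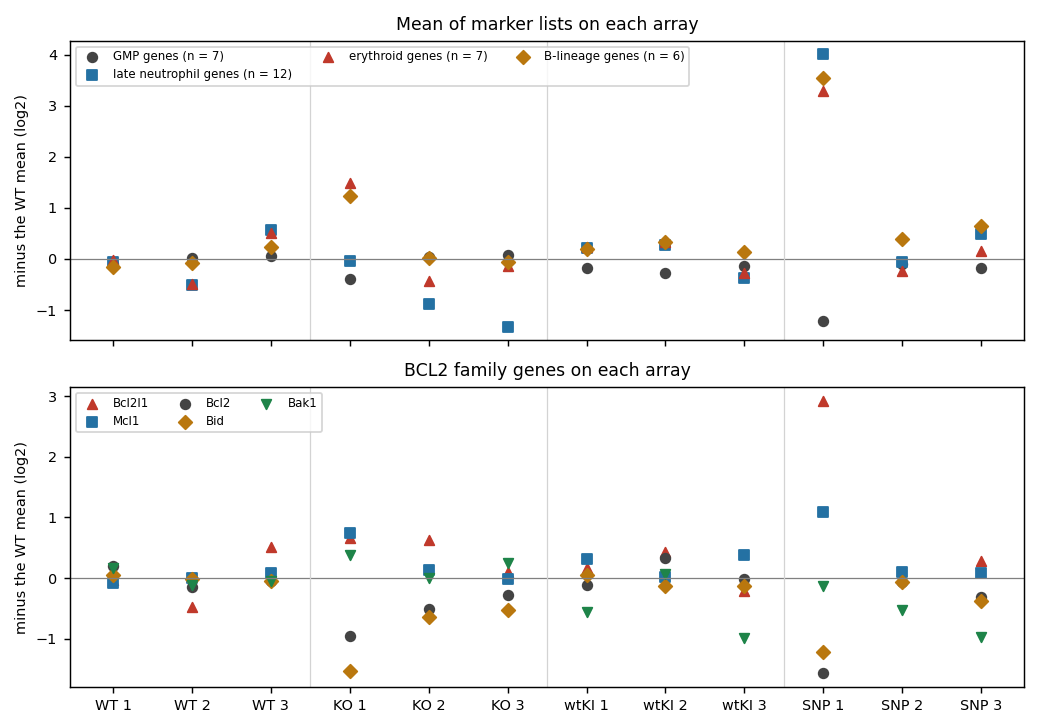
Upper panel, the mean of 4 marker lists on each of the 12 arrays minus the mean of the WT arrays (log2); lower panel, 5 BCL2 family genes on the same scale. On SNP 1 the neutrophil, erythroid and B-lineage lists lie 3.29 to 4.01 above WT, Bcl2l1 and Mcl1 are at their highest, and Bcl2 is at its lowest; Bid is lower on KO 1 than on SNP 1.

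Bak1 encodes BAK, the measured effector. It was at 8.51, 8.23 and 8.30 in WT, 8.73, 8.35 and 8.59 in KO, 7.79, 8.42 and 7.35 in wtKI and 8.22, 7.82 and 7.38 in SNP. WT and KO arrays were close to each other, and 5 of the 6 knock-in arrays lay below all of them, wtKI 2 being the exception. SNP 1 at 8.22 did so only just, next to WT 2 at 8.23. SNP minus KO was -0.75 ± 0.28 (95% interval -1.37 to -0.13, limma unadjusted p = 0.022, adjusted p = 0.344), a 1.68-fold lower level, and it was -0.87 ± 0.31 on the 10 arrays. KO minus WT was 0.21 ± 0.28 (0.12 ± 0.29 on 10 arrays). SNP minus WT was -0.54 ± 0.28 (-0.75 ± 0.29 on 10 arrays), and wtKI minus WT was -0.49 ± 0.28 with overlapping groups. SNP and wtKI differed by -0.049 ± 0.28, with a 95% interval from -0.67 to 0.57, and the sign of that small value changed with the scaling of the arrays.

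Bid links death receptors to mitochondria once caspase-8 has cut its protein. It was at 8.08, 8.02 and 7.98 in WT, 6.49, 7.39 and 7.50 in KO, 8.07, 7.90 and 7.89 in wtKI and 6.80, 7.96 and 7.65 in SNP. The WT and wtKI arrays kept within a narrow band, and every KO array lay below all 6 of them. KO minus WT was -0.90 ± 0.31 (95% interval -1.59 to -0.21, limma unadjusted p = 0.0149, adjusted p = 0.84), a 1.87-fold lower level. Against wtKI the KO difference was -0.83 ± 0.31 (unadjusted p = 0.0227, adjusted p = 0.999). KO 1 was the lowest array, and without KO 1 and SNP 1 the 2 differences were -0.58 ± 0.15 and -0.51 ± 0.15 (limma unadjusted p = 0.00368 and 0.00801, adjusted p = 0.307 and 0.387). The mast cell list was 1.20 to 1.41 above its WT mean on the same KO arrays and 1.23 above it on wtKI 3, where Bid was at 7.89. The part of that list in the Bid values was not tested.

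SNP arrays also lay below the WT arrays for Bid, by -0.56 ± 0.31, but SNP 2 at 7.96 was next to WT 3 at 7.98. The SNP minus WT value was -0.22 ± 0.15 without KO 1 and SNP 1. Between SNP and wtKI Bid differed by -0.49 ± 0.31 on 12 arrays and -0.15 ± 0.15 on 10, with overlapping groups.

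Pmaip1 encodes NOXA, a BH3-only protein that binds MCL-1 and is known as a p53 target, and it rests on 1 probe set. It was at 5.95, 4.96 and 5.48 in WT, 4.83, 7.03 and 6.73 in KO, 5.25, 6.36 and 5.09 in wtKI and 5.53, 5.28 and 4.97 in SNP. KO 2 and KO 3 were the highest of all 12 arrays, and KO 1 was the lowest. On 6 arrays, 2 each of WT, wtKI and SNP, the value lay below the 5th percentile of the array's probe sets, so the sizes of its differences are not exact. KO minus WT was 0.73 ± 0.53 on 12 arrays (adjusted p = 1) and 1.42 ± 0.39 on 10 (unadjusted p = 0.00492, adjusted p = 0.346), and SNP minus KO was -0.94 ± 0.53 and -1.75 ± 0.43. SNP minus wtKI was -0.30 ± 0.53 and -0.44 ± 0.39.

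The other BH3-only genes showed smaller differences. Bcl2l11, which encodes BIM, a killer of cytokine-deprived blood cells, was at 7.22, 6.81 and 6.93 in WT, 6.03, 6.75 and 6.98 in KO, 6.80, 6.32 and 6.90 in wtKI and 7.01, 7.08 and 6.33 in SNP. Its KO minus WT value of -0.40 ± 0.29 became -0.12 ± 0.26 on the 10 arrays, and SNP minus wtKI was 0.13 ± 0.29 and 0.033 ± 0.26. Bad, whose protein is held inactive by survival kinases, lay between 6.76 and 7.02 on the WT and KO arrays and between 6.35 and 6.90 on the knock-in arrays. It differed by -0.017 ± 0.19 between KO and WT and by -0.097 ± 0.19 between SNP and wtKI. Bbc3, which encodes PUMA, another p53 target, kept within 6.20 and 6.89 on all 12 arrays, and its differences in the same comparisons were 0.13 ± 0.20 and -0.0088 ± 0.20. The 95% intervals of the Bbc3 differences ran from -0.30 to 0.56 and from -0.44 to 0.42.

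**Figure D2:**
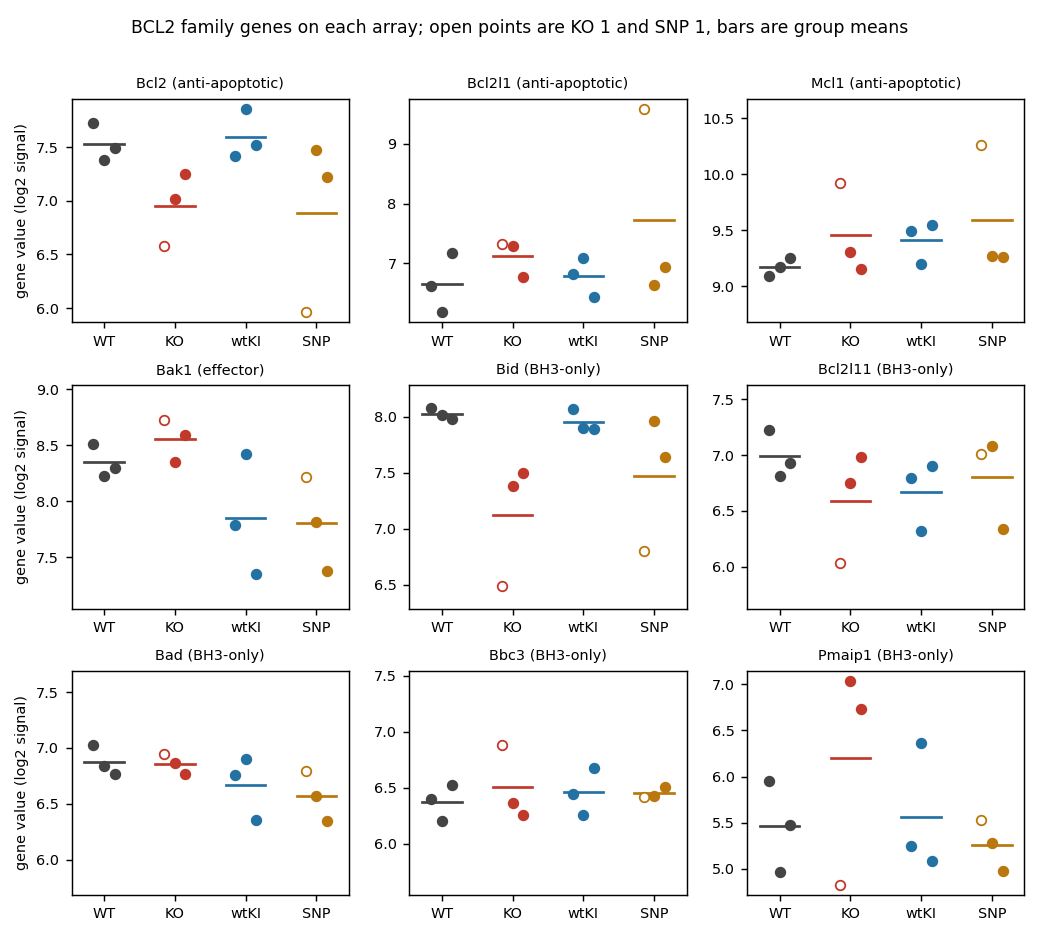
Gene value (log2 signal) of the 9 measured BCL2 family genes on each array by genotype; points are arrays, open points KO 1 and SNP 1, and bars group means. Each KO array lies below each WT and wtKI array for Bid and Bcl2, Bak1 is lowest among knock-in arrays, and Bcl2l1 reaches 9.58 on SNP 1 alone.

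Group by group, the 3 survival genes averaged 0.15, 0.080 and -0.066 from their WT mean on KO 1 to KO 3, and 0.81, 0.005 and 0.018 on SNP 1 to SNP 3. The 5 BH3-only genes averaged -0.51, 0.13 and 0.10 on the KO arrays and -0.24, -0.082 and -0.38 on the SNP arrays. On KO 2 and KO 3 Pmaip1 lay at 1.57 and 1.27 from its WT mean and Bid at -0.64 and -0.53. The other BH3-only genes lay between -0.24 and -0.0086 there, so the positive means of these arrays rest on Pmaip1. On SNP 1 Bcl2 lay at -1.57, Bcl2l1 at 2.92 and Mcl1 at 1.08. These means therefore do not describe a shared movement of the genes.

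KO against WT asked what the loss of Gfi1 changes. Of the 9 genes 5 were higher and 4 lower in KO, with a median difference of 0.13 against -0.019 over all genes, and the median size without its sign was 0.40 against 0.18. Limma called 0 of 9 at an adjusted p of 0.05, as it called 0% of all genes. At an unadjusted p of 0.05 it marked 1 of 9, Bid, against 4.79% of all genes. The groups lay apart for 2 of 9 on the lower side, Bid and Bcl2, against 6.1% of all genes, and for 0 of 9 on the higher side, against 5.75%. On the 10 arrays 2 of 9, Bid and Pmaip1, had an unadjusted p under 0.05, against 6.82% of all genes, and the median size was 0.12 against 0.16. With array weights Bid (-0.65 ± 0.14, adjusted p = 0.0319) and Pmaip1 (1.42 ± 0.30, adjusted p = 0.0273) were called, 2 of 9 against 3.51% of all genes. That fit rests the KO mean mostly on KO 2, whose weight was 6.83 beside 0.22 for KO 1 and 0.87 for KO 3.

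SNP against wtKI set the variant human form beside the common one, the comparison the study was made for. Of the 9 genes 3 were higher and 6 lower in SNP, with a median of -0.049 against -0.022 over all genes. None was called (0% of all genes), none had an unadjusted p under 0.05 (8.89% of all genes), and none lay apart on the higher or lower side (7.26% and 7.36% of all genes). The smallest p belonged to Bcl2 (-0.71, unadjusted p = 0.0626). On the 10 arrays the differences of the 9 genes had a median size of 0.15, against 0.19 over all genes, and Pmaip1 was the largest at -0.44 ± 0.39. A 95% interval as wide as that of Bcl2 on 12 arrays, -1.47 to 0.045, does not show that the 2 knock-ins act alike.

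**Figure D3:**
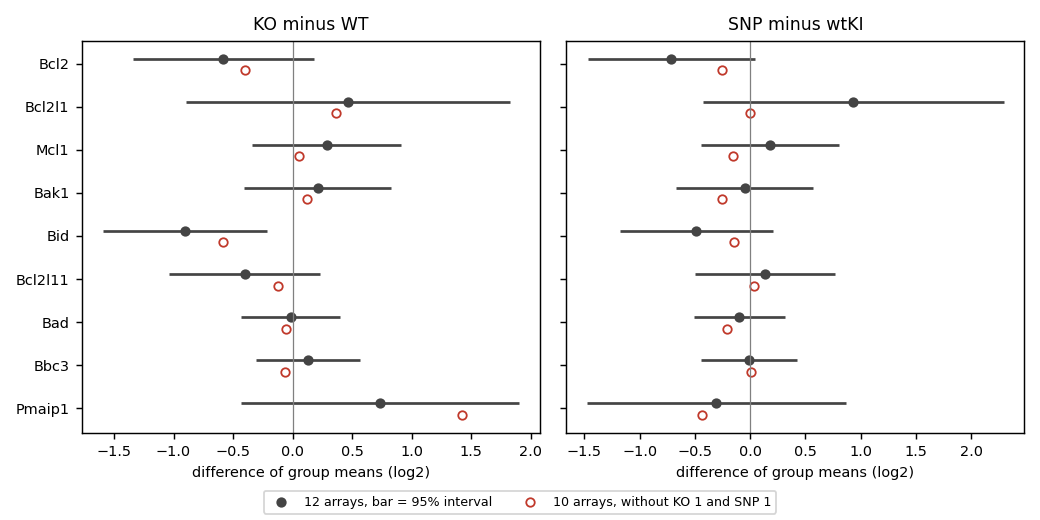
Difference of group means (log2) of the 9 genes in KO minus WT and SNP minus wtKI; filled points and bars are the 12-array fit with its 95% interval, open points the fit without KO 1 and SNP 1. The Bid interval in KO minus WT, -1.59 to -0.21, is the one that does not reach 0, and the SNP minus wtKI value of Bcl2l1 goes from 0.93 to 0.0017.

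The other 4 comparisons share groups with these and were read side by side. In wtKI against WT Bak1 (-0.49 ± 0.28), Bcl2l11 (-0.32 ± 0.29) and Bad (-0.21 ± 0.19) had the smallest p-values, all with adjusted p = 1. Limma called 0 of 9 (0% of all genes), 0 of 9 had an unadjusted p under 0.05 (3.06%), and 0 of 9 lay apart higher or lower (5.71% and 6.84%). In SNP against WT these were Bak1, Bcl2 (-0.65 ± 0.34) and Bid, with adjusted p between 0.346 and 0.37. The Bcl2 value was -0.18 ± 0.19 on the 10 arrays, without SNP 1. Again 0 of 9 were called (0% of all genes) and 0 of 9 had an unadjusted p under 0.05 (15.9%), while Mcl1 lay apart higher (12.8% of all genes) and Bak1 and Bid lower (12.8%). On the 10 arrays Bak1 had an unadjusted p under 0.05 (0.0266 by limma, adjusted p = 0.266), 1 of 9 against 16% of all genes.

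In SNP against KO the smallest p-values belonged to Bak1, Pmaip1 and Bad (-0.29 ± 0.19, and -0.36 ± 0.21 on 10 arrays). The 3 Bad probe sets were not alike: 10461021 was at -0.69 ± 0.25 with the groups apart, against 7.95% of all probe sets. Probe set 10461019 was at -0.31 ± 0.32 and 10461020 at 0.28 ± 0.31, both with overlapping groups. Limma called 0 of 9 (0.0141% of all genes), and 1 of 9, Bak1, had an unadjusted p under 0.05 (12.7%). Bak1 also lay apart lower (7.21%), and 0 of 9 lay apart higher (6.71%). On the 10 arrays Bak1 and Pmaip1 had an unadjusted p under 0.05, 2 of 9 against 15.6% of all genes, and with array weights Pmaip1 was called (-1.82 ± 0.38, adjusted p = 0.0345), 1 of 9 against 3.64%.

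KO against wtKI gave the smallest p-values to Bid, Bak1 (0.70 ± 0.28, unadjusted p = 0.03) and Bcl2 (-0.65 ± 0.34), each with adjusted p = 0.999. On the 10 arrays Bak1 was 0.61 ± 0.29 and Bcl2 -0.46 ± 0.19. Limma called 0 of 9 (0% of all genes), Bid and Bak1 had an unadjusted p under 0.05 (2 of 9 against 4.58%), Bid and Bcl2 lay apart lower (5.55%), and 0 of 9 lay apart higher (5.33%). On the 10 arrays Bid, Bcl2 and Pmaip1 had an unadjusted p under 0.05, 3 of 9 against 8.36% of all genes. With array weights Bid (-0.63 ± 0.14) and Pmaip1 (1.51 ± 0.30) were called, with adjusted p = 0.0311 and 0.0213, 2 of 9 against 5.27%. Limma's F-test for any difference among the 4 genotypes called 0 of 9 (0% of all genes). At an unadjusted p under 0.05 it marked Bid alone, 1 of 9 against 9.08% of all genes.

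Single probe sets showed how far the parts of a transcript moved together. For Bid all 5 probe sets were lower in KO than in WT, by -1.63 to -0.030, and 4 of the 5 lay apart, against 6.32% of all probe sets. The probe set that did not, 10547538, was at 7.99, 6.91 and 7.72 in WT and 7.65, 7.39 and 7.50 in KO. Bcl2 had all 7 probe sets lower in KO, by -2.65 to -0.41, with 5 apart. The widest of these differences came from probe set 10349104, which was at 3.42, 4.54 and 6.53 in KO and 8.49, 6.99 and 6.98 in WT. On KO 1 and KO 2 it lay below the 5th percentile of the array's probe sets (4.40 and 5.47), so the size of that difference is not exact. Against wtKI, 3 of 5 Bid and 4 of 7 Bcl2 probe sets lay apart lower in KO (6.02% of all probe sets).

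For Bak1 all 8 probe sets were lower in SNP than in KO, by -1.13 to -0.45, with 6 apart (7.95% of all probe sets), and all 8 were lower in SNP than in WT, with 4 apart (12.1%). The 10 probe sets of Bcl2l1 were less even: 7 were higher and 3 lower in KO than in WT. All 10 were higher in SNP than in wtKI. SNP 1 raised the SNP mean for 9 of them, but for 10488671 SNP 1 was the lowest SNP array. For 10488668 each SNP array lay above each wtKI array. Probe set 10488660 of Bcl2l1 ran from 4.51 on WT 3 to 11.18 on SNP 1, and 10488671 was at 5.08 on SNP 1, where the other 9 had their highest value. Probe sets of a gene share its RNA and are not replicates of a genotype.

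**Figure D4:**
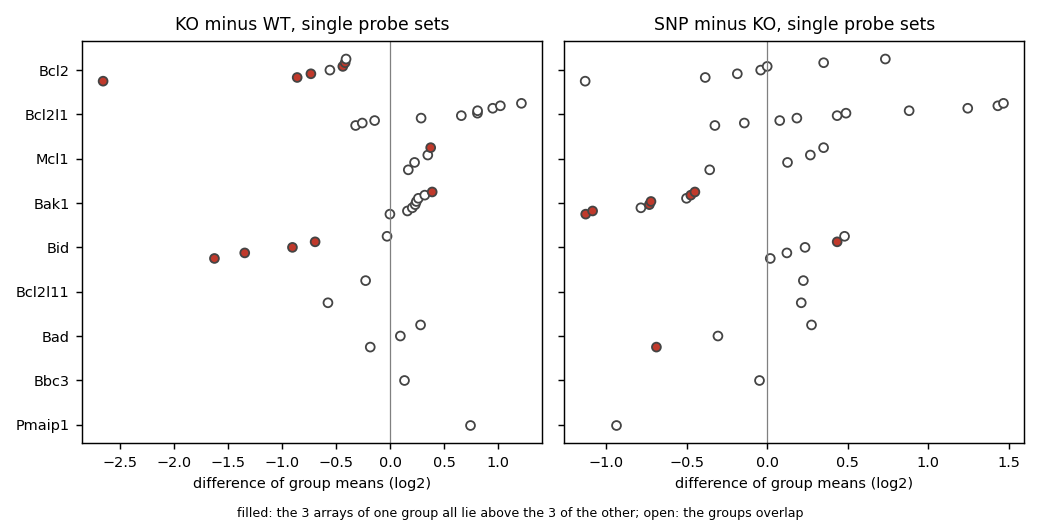
Difference of group means (log2) for each of the 41 probe sets, by gene, in KO minus WT and SNP minus KO; filled points are probe sets whose 3 arrays of each group do not overlap. In KO minus WT 4 of 5 Bid and 5 of 7 Bcl2 probe sets are filled on the lower side, and in SNP minus KO 6 of 8 Bak1 probe sets.

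The wider death pathway was followed through 5 lists, of whose 72 genes 59 had a value. Limma called 0 of the 59 in KO against WT and 0 in SNP against wtKI, with 3 and 2 at an unadjusted p under 0.05, against 4.79% and 8.89% of all genes. The 10 measured relatives in the BCL2 family were 6 higher and 4 lower in KO (median 0.030), with the smallest p for Bmf, a BH3-only gene (0.22 ± 0.15, adjusted p = 1), which was also 0.31 ± 0.15 higher in SNP than in wtKI (adjusted p = 0.55). Of 15 genes of the apoptosome, caspases and their inhibitors 6 were higher and 9 lower in KO (median -0.028). Casp6, an executioner caspase, had a KO mean of 6.82 ± 0.22 and a WT mean of 6.00 ± 0.23 (SD, n = 3 each), a difference of 0.82 ± 0.32 (adjusted p = 0.993), and at 0.91 on the 10 arrays (adjusted p = 0.217). In SNP against wtKI the smallest p in that list was that of Apaf1, the scaffold of the apoptosome (0.61 ± 0.28, adjusted p = 0.55), at 0.33 ± 0.24 on the 10 arrays.

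Death receptor genes were lower in KO in 10 of 11 (median -0.16, against -0.019 over all genes) and in 6 of 11 on the 10 arrays. Ripk1, a kinase of the receptor complexes, had a KO mean of 7.18 ± 0.32 and a WT mean of 7.70 ± 0.040 (SD, n = 3 each), a difference of -0.53 ± 0.18 (adjusted p = 0.799), and of -0.38 ± 0.16 on the 10 arrays. Tnfsf10, which encodes the death ligand TRAIL, was -0.51 ± 0.23 in SNP against wtKI (adjusted p = 0.55) and -0.61 ± 0.19 on the 10 arrays. Among 10 transcription factors reported to control the family, 6 were higher and 4 lower in KO, with Foxo1 at 0.59 ± 0.38 (adjusted p = 1, and 0.53 ± 0.16 on the 10 arrays). Myc was at -1.05 ± 0.51 in SNP against wtKI (adjusted p = 0.55), with an SD of 1.41 in SNP and 0.093 in wtKI, and at -0.25 ± 0.17 without SNP 1. Of 13 regulators of the proteins themselves, 5 were higher and 8 lower in KO. Btrc, a ubiquitin ligase component, had the smallest p there (-0.61 ± 0.26, adjusted p = 1), and Vdac3, a channel of the mitochondrial outer membrane, in SNP against wtKI (-0.30 ± 0.18, adjusted p = 0.565). Trp53, the p53 gene, is among the listed genes without a value and is not analysed here.

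**Figure D5:**
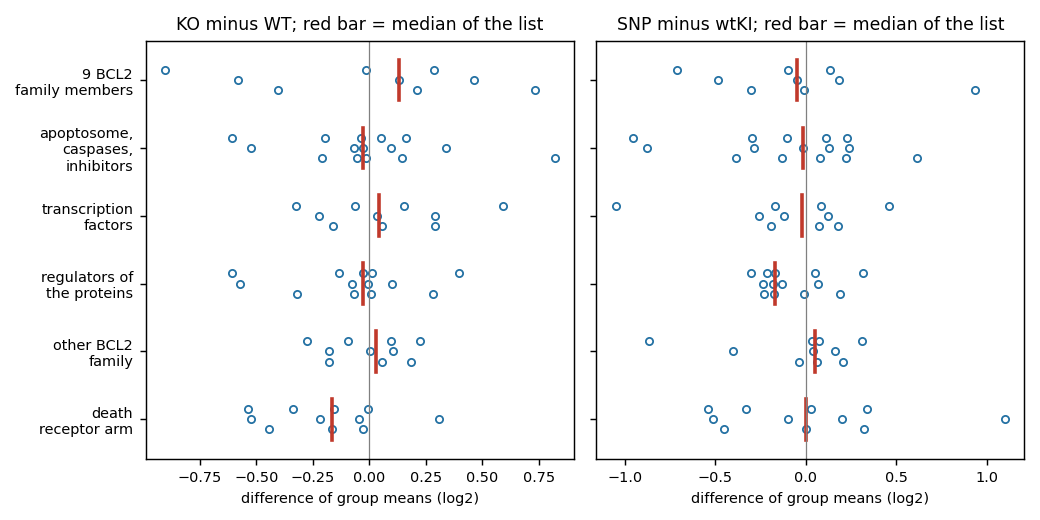
Difference of group means (log2) for the 9 BCL2 family genes and for the 59 measured genes of 5 related lists, in KO minus WT and SNP minus wtKI; each point is a gene and the red bars are list medians. The list medians in KO minus WT lie between -0.16 for death receptor genes and 0.13 for the 9 genes.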

How the data were processed

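The deposited values are log2 signals, which the authors obtained by RMA according to the submitters' processing notes, whose version and options no source used here gives. The platform annotation pairs 98975 of 105661 probe sets with 1 symbol, 1703 with several and 4983 with none. The single-symbol probe sets cover 14201 genes, in the median 5 to a gene; 1752 symbols were updated from RefSeq (GRCm38.p6), which held 14148 of the genes. Every probe set reaches at least 6.14 on some array, so genes low in all samples are missing. Precision is limited by the 12 arrays.

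Median polish of a gene's probe sets summarised it on each array. Limma 3.58.1 in R 4.3.3 (lmFit, eBayes) was fitted to all 12 arrays across all genes, with Benjamini-Hochberg adjustment and a threshold of 0.05, and was tested on simulated data. Groups came from the sample titles. The 9 genes are named throughout in KO minus WT and SNP minus wtKI; elsewhere the 3 with the smallest p are named, and in each related list the gene with the smallest p. Genes or arrays singled out beyond this, probe sets among them, were chosen after their values were seen. The rule also asked for genes most like Bax, which has no value here. Members, lists and tests were chosen with earlier results of these data known.

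Alternatives were another summary of the probe sets, median centring, quantile normalization, a filter on the lowest 30% of genes by mean, single probe sets, other variance models, array weights, a sex term, a replicate block, 10 arrays without KO 1 and SNP 1, and each array left out; counts of genes lying apart on 10 arrays were added after seeing the data. Deviations from group means of same-numbered KO and SNP arrays correlated with r = 0.352, 0.206 and 0.144. For same-numbered arrays of other groups r ran from -0.187 to 0.112. The deviations sum to 0 within a group, KO 1 and SNP 1 both stood apart, and differently numbered arrays were not compared. These values therefore do not show that replicate numbers pair KO with SNP. At most 0.0511% of values were equal between any 2 arrays.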

Additional observations from a re-analysis of the deposited data

How the results depend on the processing

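No gene of the family was called in any comparison under the alternatives run, except with array weights. These gave 2 calls in KO minus WT (against 3.51% of all genes), 1 in SNP minus KO (against 3.64%) and 2 in KO minus wtKI (against 5.27%). The test over all genotypes gave 2 calls with array weights. Its share over all genes was not counted, so those 2 calls cannot be set against one. At an unadjusted p of 0.05 the calls were, in the same order, 1, 1, 2 and 1 of 9. The shares of all genes were 4.79%, 12.7%, 4.58% and 9.08%. The replicate block gave 0 calls in every comparison and changed no call. Single probe sets, tested for counts only, gave 0 calls, and the fit to only the 2 groups compared allows no test over all genotypes. With a sex term Bid in KO minus WT was -0.94. All KO and SNP arrays read as male, so that term cannot change SNP minus KO, where Bak1 stayed at -0.75. Signal over background limits Pmaip1 and single probe sets such as 10349104 of Bcl2. Without KO 1, Bid in KO minus WT was -0.58, and the range over each array left out was -1.09 to -0.58.

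Some differences changed sign, and the cause was not tested. In KO minus WT, Bad turned to 0.063 with the mean of probe sets, 0.093 with the brightest probe set and 0.035 with median centring, and Bbc3 to -0.040 with array weights and -0.061 on 10 arrays. In SNP minus wtKI, Mcl1 turned to -0.11 with array weights and -0.15 on 10 arrays, and Bak1 to 0.025 with the brightest probe set, 0.063 with median centring and 0.038 with quantile normalization. Bcl2l11 turned to -0.45 with the brightest probe set and -0.088 with array weights, and Bad to 0.015 and 0.018 with median centring and quantile normalization. Bbc3 turned to 0.10, 0.11, 0.018, 0.0078 and 0.073 with median centring, quantile normalization, array weights, 10 arrays and a sex term. With the brightest probe set Bcl2l11 in wtKI minus WT went from -0.32 to 0.085 and Bcl2 in SNP minus WT from -0.65 to 0.00058.

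Leaving out each array gave Bad in KO minus WT from -0.072 to 0.058 (above 0 without WT 1 or KO 3) and Bbc3 from -0.061 to 0.25 (below 0 without KO 1). In SNP minus wtKI it gave Mcl1 from -0.15 to 0.35 (below 0 without SNP 1), Bak1 from -0.30 to 0.23 and Bad from -0.26 to 0.019 (above 0 without wtKI 2 or SNP 3), Bcl2l11 from -0.044 to 0.37 (below 0 without wtKI 2 or SNP 2), Bbc3 from -0.11 to 0.098 (above 0 without wtKI 3, SNP 1 or SNP 2) and Pmaip1 from -0.54 to 0.093 (above 0 without wtKI 2).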
